A study of Saccharomyces cerevisiae with 12 samples.

Results

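The genes described here encode the proteins of the large subunit of the cytosolic ribosome of budding yeast, Saccharomyces cerevisiae. They were taken by name: every gene probe called RPL with a number, or RPP with 0, 1 or 2, with or without the paralogue letter A or B. This gave 82 of the 6252 gene probes on the array, each spotted 2 times (164 of 12504 gene spots). All 82 matched a RefSeq gene of the same symbol. One of them, RPP1 (YHR062C), carries a stalk protein's name by coincidence: it encodes a protein subunit of the RNA-processing enzymes RNase P and RNase MRP. The other 81 are ribosomal protein genes, 70 of them in 35 pairs of A and B copies and 11 present once.

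Expression was measured in strains deleted for hsp31, hsp32 or hsp33 and in the wild-type strain, with 3 arrays per group and 12 in all. HSP31 and its relatives encode small proteins of the DJ-1 family, which includes the human Parkinson's disease protein DJ-1 and acts in stress protection. All 4 groups were grown in synthetic complete medium and collected at the diauxic shift, the point at which yeast has used up its glucose, slows down and turns to respiring the ethanol it has made. Strain background and culture are missing from the labels: the 3 arrays of a group may stem from 1 culture or from several, and in the first case the spread behind the p-values is technical. Total RNA was labelled with the dye Cy3 and hybridized to 1-colour Agilent arrays.

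Making ribosomes is the largest single expense of a growing yeast cell, and the genes for ribosomal proteins are switched on and off together. In yeast most of them are bound by Rap1 and by Fhl1 with its coactivator Ifh1, and they respond to the nutrient kinases TORC1 and protein kinase A. Their transcripts fall when glucose runs out. Many of these genes are held in pairs left by an ancient duplication of the genome, and the products of many pairs, though not of all, are identical or nearly so.

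Before the members, the arrays themselves are described. The median foreground of an array lay between 602.5 and 1179 intensity units over a median local background of 66 to 93. The level above which a probe counted as above background came from negative control spots and ran from 35.4 to 53.6 units for most arrays, and 284 for replicate 2 of the hsp32 deletion. HSP31 was below background on all 3 hsp31 deletion arrays, with a mean log2 intensity of 6.66 ± 0.15 against 12.69 ± 0.13 in wild type (SD, n = 3 each). The probes of HSP32, HSP33 and their near-identical relative SNO4 were above background on every array and did not check the labels of the other deletions. HSP32 averaged 10.20 ± 0.09 in the hsp32 deletion, 11.06 ± 0.19 in the hsp33 deletion and 12.54 ± 0.19 in wild type (SD, n = 3 each). HSP33 was not lowest in the hsp33 deletion: it averaged 9.41 ± 0.04 there, 0.47 higher than the 8.94 ± 0.11 of the hsp32 deletion (limma adjusted p = 0.00595), with 11.15 ± 0.14 in wild type. SNO4 had the same order, at 9.94 ± 0.18, 10.57 ± 0.03 and 12.21 ± 0.12 in the hsp32 deletion, the hsp33 deletion and wild type. In the hsp31 deletion HSP32, HSP33 and SNO4 averaged 11.43, 9.92 and 11.16, below wild type too. How much signal these probes share was not tested. The names hsp32 deletion and hsp33 deletion below are therefore those of the labels, including where the order of these groups is given. The groups also differed in auxotrophic marker genes. URA3 averaged 15.18 ± 0.13 in the hsp32 deletion and was below background on all wild-type arrays (6.93 ± 0.05). HIS3 averaged 9.83 ± 0.14 in the hsp31 deletion, 10.21 ± 0.26 in the hsp32 deletion, 7.54 ± 0.04 in the hsp33 deletion and 8.88 ± 0.04 in wild type (SD, n = 3 each), and fell by 1.34 in the hsp33 deletion (limma adjusted p = 3.44e-07). The part of these differences in the results below was not tested. The arrays lay on 2 slides, inferred from repeated scan positions in the files and not from the labels, and every group had arrays on both.

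The large subunit genes were more highly expressed in all 3 deletions than in wild type. All levels below are log2 intensities after background correction and quantile normalization, and a change is the difference of group means in log2 units, so that 1 is a doubling. With the 81 ribosomal protein genes (without RPP1) on each array summarised by their median, the hsp31 deletion arrays averaged 13.19 ± 0.15, the hsp32 deletion arrays 13.69 ± 0.16, the hsp33 deletion arrays 13.48 ± 0.19 and the wild-type arrays 11.88 ± 0.07 (SD, n = 3 each). No deletion array overlapped a wild-type array: the lowest deletion array had a median of 13.08 and the highest wild-type array one of 11.96. The same was seen without quantile normalization, with each array set against its own median gene. The median of these 81 genes was 8.11 to 11.3 times as bright as the median gene of the same array in the hsp31 deletion, 11.9 to 15.5 times in the hsp32 deletion and 11.0 to 13.9 times in the hsp33 deletion, against 4.54 to 5.15 times in wild type. An array value is relative to the other transcripts of the same sample, so a higher share of these transcripts and a lower amount of the others cannot be told apart, nor can a change in every cell and a change in the mix of cells.

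**Figure D1:**
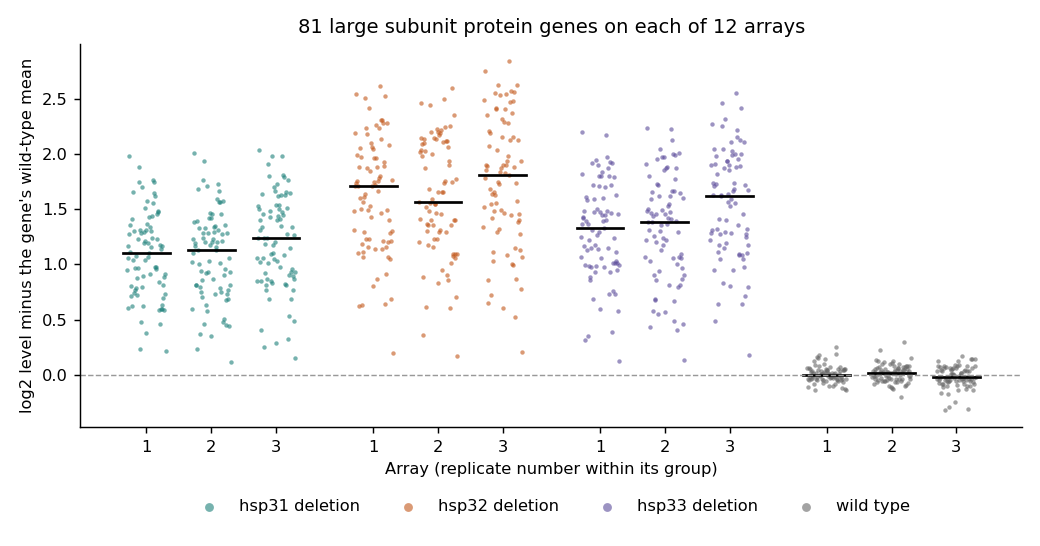
Each point is 1 of the 81 ribosomal protein genes on 1 array, as its log2 level minus the mean of that gene over the 3 wild-type arrays, and the black bar is the median of the array. The deletion arrays have medians between 1.11 and 1.81, and the wild-type arrays lie around 0.

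In limma's test across the 5863 genes that every array of some group measured above background (Benjamini-Hochberg adjusted p under 0.05), 81 of the 82 members rose in the hsp31 deletion, where 25.8% of all tested genes were called higher. In the hsp32 deletion 81 rose, against 33.3% of all tested genes, and in the hsp33 deletion 81 rose, against 29% of all tested genes. No member was called lower, where 30.4%, 36.7% and 32.4% of all tested genes were. With each array scaled only to its median, 77 members were called higher in the hsp31 deletion, 79 in the hsp32 deletion and 79 in the hsp33 deletion, and RPL3 was then called lower in the hsp31 deletion. The members that lost their call in the hsp31 deletion with that scaling were RPL4A (-0.067), RPL5 (-0.086), RPP1A (0.16) and RPL3, and in each of the hsp32 and hsp33 deletions they were RPL3 and RPL4A. Scaling to the 75th percentile gave 78, 81 and 81. The shares of all tested genes called are not given under either of these scalings, and those above do not apply to them. The median of all tested genes was 0.12, 0.17 and 0.15 with the 75th percentile. With the median it was -0.080, -0.10 and -0.075. The 3 comparisons share the wild-type arrays, so they are not separate evidence.

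The median member rose by 1.12 in the hsp31 deletion, 1.65 in the hsp32 deletion and 1.41 in the hsp33 deletion, while the median of all tested genes moved by -0.03, -0.04 and -0.03. Relative to the median gene, the shift of the median member was 1.15, 1.69 and 1.44 with quantile normalization and 0.93, 1.43 and 1.16 with each array scaled to its 75th percentile or its median. A rise of at least 2-fold was called in 50 members in the hsp31 deletion (4.54% of all tested genes), 73 in the hsp32 deletion (11.5%) and 65 in the hsp33 deletion (7.47%). The groups' arrays did not overlap with those of wild type for 81, 82 and 81 members, where 29.2%, 36.2% and 33.8% of all tested genes had every deletion array above every wild-type array. The median within-group SD of a member was 0.13, like that of all genes (0.13).

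The shift was present on both slides. Within slide 1, the median member change was 1.12 in the hsp31 deletion, 1.66 in the hsp32 deletion and 1.60 in the hsp33 deletion, and within slide 2 it was 1.20, 1.69 and 1.34. In the hsp31 deletion within slide 1, with 2 arrays per group, 79 members were called higher. The share of all tested genes or pairs called is not given for this or any other fit within a slide. The other comparisons with wild type within a slide had 1 array in at least 1 group, on slide 2 always in wild type. Their spread comes only from groups with 2 arrays.

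**Figure D2:**
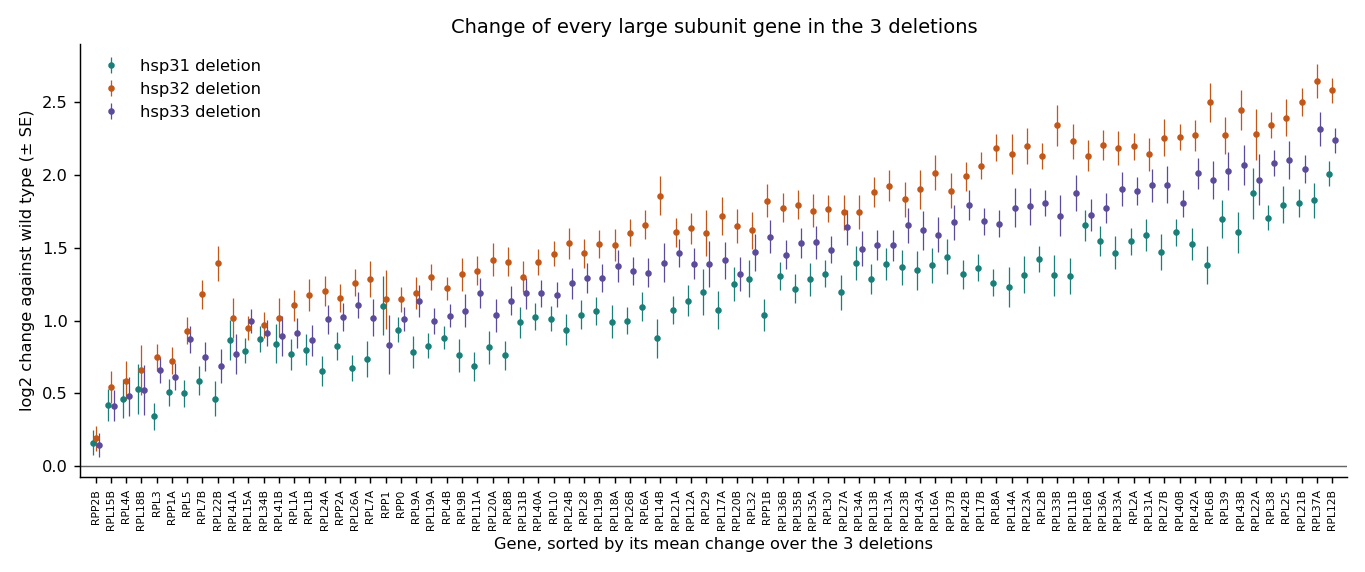
The log2 change of each of the 82 genes against wild type (y axis, ± SE of limma's fit) is drawn for the 3 deletions, with genes sorted by their mean change. With quantile normalization the changes of the genes other than RPP2B, whose saturated probe cannot be read, run from 0.34 to 2.65. In the hsp31 deletion RPL3 falls below 0 when arrays are scaled to their median or their 75th percentile, and RPL4A and RPL5 with the median only.

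The genes with the highest changes came from several parts of the subunit. RPL37A (YLR185W) encodes a small zinc-binding protein that lies close to the ribosomal RNA. On the log2 scale it stood at 13.37, 13.33 and 13.59 on the hsp31 deletion arrays, 14.21, 14.10 and 14.44 on the hsp32 deletion arrays, 13.77, 13.83 and 14.15 on the hsp33 deletion arrays, and 11.57, 11.67 and 11.57 on the wild-type arrays. Its 9 deletion arrays all lay above the wild-type arrays. RPL37A rose by 1.83 ± 0.12 in the hsp31 deletion (3.54-fold, limma adjusted p = 4.06e-08), 2.65 ± 0.12 in the hsp32 deletion (6.27-fold, 4.17e-10) and 2.32 ± 0.12 in the hsp33 deletion (4.98-fold, 2.71e-09; ± is the SE).

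RPL12B, which encodes a protein at the base of the stalk, had 14.30, 14.32 and 14.36 in the hsp31 deletion, 14.86, 14.77 and 15.07 in the hsp32 deletion, 14.52, 14.55 and 14.59 in the hsp33 deletion, and 12.37, 12.31 and 12.26 in wild type. The arrays of each group lay close together, and the rises were 2.01 ± 0.09, 2.59 ± 0.09 and 2.24 ± 0.09. RPL21B rose by 1.81 ± 0.10 in the hsp31 deletion and 2.50 ± 0.10 in the hsp32 deletion, and RPL6B by 2.50 ± 0.13 in the hsp32 deletion. RPL22A was among the 4 largest changes in the hsp31 deletion, at 1.87 ± 0.17. In the hsp33 deletion RPL25 and RPL38, both present once, followed RPL37A and RPL12B with 2.10 ± 0.13 and 2.08 ± 0.09. The members nearest the median were RPL12A in the hsp31 deletion (1.13 ± 0.11), RPL20B in the hsp32 deletion (1.65 ± 0.12) and RPL14B in the hsp33 deletion (1.40 ± 0.13).

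At the other end, RPP2B was the 1 member not called in any of the 3 comparisons. Its probe was saturated on all 12 arrays, with 59 to 94% of pixels at the scanner's limit, so its change cannot be read and no fold is given. Some arrays also had at least 50% of pixels at the limit for 3 other members: RPL4A on 2 arrays each of the hsp31 and hsp32 deletions and 1 of the hsp33 deletion, RPP0 on 1, 2 and 1, and RPL5 on 1 each of the hsp32 and hsp33 deletions. None of the 3 was saturated in wild type, so their changes in the deletions may be understated. Below that cut, RPL28 reached 43.5% and RPL4B 12% of pixels at the limit on their most saturated array.

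RPL15B, RPL18B and RPL3 had low changes without any saturation. RPL22B was among the 4 smallest changes in the hsp31 deletion (0.46 ± 0.12), but it rose by 1.40 ± 0.12 in the hsp32 deletion and 0.69 ± 0.12 in the hsp33 deletion. RPL15B rose by 0.42 ± 0.11 in the hsp31 deletion, 0.55 ± 0.11 in the hsp32 deletion and 0.41 ± 0.11 in the hsp33 deletion. RPL18B was dim, above background on 10 of 12 arrays, and rose by 0.53 ± 0.17, 0.66 ± 0.17 and 0.52 ± 0.17. In the hsp33 deletion the call of RPL18B was lost without wild type replicate 3 (0.37, adjusted p = 0.0942), without hsp33 deletion replicate 2 (adjusted p = 0.0505) or replicate 3 (adjusted p = 0.0628). RPL3 encodes a protein that reaches towards the site where peptide bonds form. It had 14.54, 14.51 and 14.44 in the hsp31 deletion, 14.96, 14.98 and 14.76 in the hsp32 deletion, 14.75, 14.72 and 14.96 in the hsp33 deletion, and 14.20, 14.17 and 14.10 in wild type. It rose by 0.34 ± 0.09 in the hsp31 deletion (adjusted p = 0.00579), but with arrays scaled to their 75th percentile the value was -0.046 (adjusted p = 0.637) and with arrays scaled to their median it was -0.25 (adjusted p = 0.0237). The direction of RPL3 in the hsp31 deletion therefore depends on the scaling. In the hsp32 and hsp33 deletions RPL3 rose by 0.75 ± 0.09 and 0.66 ± 0.09, and with arrays scaled to their median it had 0.097 and 0.081, not past the test.

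The members are given next by their place in the subunit. The flexible stalk recruits the GTPase translation factors, and its base and anchor (RPL12A, RPL12B, RPP0) and acidic tip proteins (RPP1A, RPP1B, RPP2A, RPP2B) make 7 genes. Of these 6 rose in each deletion, with medians of 0.94, 1.15 and 1.03 in the deletions of hsp31, hsp32 and hsp33, and their range was wide, from the saturated RPP2B to RPL12B. RPP0, the anchor of the stalk, rose by 0.94 ± 0.08, 1.14 ± 0.08 and 1.01 ± 0.08, values limited by saturation as above. The acidic protein genes RPP1A and RPP1B are described with the pairs.

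The 3 genes RPL5, RPL11A and RPL11B encode the proteins that are built into the subunit together with its smallest RNA. All 3 rose in each deletion, RPL5 by 0.50 ± 0.09, 0.93 ± 0.09 and 0.87 ± 0.09 (in the hsp31 deletion 0.12 with the 75th percentile and -0.086 with the median, neither past the test), and RPL11B by 1.31 ± 0.12, 2.23 ± 0.12 and 1.87 ± 0.12. RPL1A and RPL1B encode the protein of the stalk beside the exit of spent transfer RNA, and both rose, RPL1A by 0.77 ± 0.11, 1.11 ± 0.11 and 0.91 ± 0.11. Around the catalytic centre lie the products of RPL3, RPL4A, RPL4B and RPL10. All 4 rose in each deletion (in the hsp31 deletion RPL3 and RPL4A only with quantile normalization, and with arrays scaled to their median neither was called in the other deletions), with medians of 0.67, 0.98 and 0.85, below the medians of all members. RPL4A was saturated on part of the deletion arrays, as above, so these medians may be understated. RPL10, whose protein is added last, in the cytoplasm, rose by 1.01 ± 0.09, 1.46 ± 0.09 and 1.18 ± 0.09.

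The 8 genes for proteins that line or surround the exit of the peptide tunnel (RPL17A, RPL17B, RPL25, RPL26A, RPL26B, RPL35A, RPL35B and RPL39) all rose in each deletion, with medians of 1.25, 1.78 and 1.53. RPL25 encodes a docking site for factors that receive the new chain. It had 13.08, 13.09 and 13.36 in the hsp31 deletion, 13.80, 13.52 and 14.00 in the hsp32 deletion, 13.33, 13.43 and 13.70 in the hsp33 deletion, and 11.34, 11.41 and 11.39 in wild type, so every deletion array was above every wild-type array. RPL39 encodes one of the smallest ribosomal proteins, inside the tunnel, and rose by 1.70 ± 0.13, 2.27 ± 0.13 and 2.03 ± 0.13. RPL40A and RPL40B, made as fusions with ubiquitin, both rose in each deletion. The 11 single-copy genes all rose, with medians of 1.20, 1.60 and 1.39, and 69 of the 70 paired genes rose, with medians of 1.11, 1.73 and 1.43 in the deletions of hsp31, hsp32 and hsp33. No test was made between these groups of genes. RPP1, the RNase P and RNase MRP gene, rose as well, by 1.10 ± 0.20, 1.15 ± 0.20 and 0.83 ± 0.20. On the hsp31 deletion arrays it stood at 9.62, 8.62 and 8.77 against a wild-type mean of 7.90, so replicate 1 carries part of that rise.

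The A and B copies of a pair did not rise by the same amount in many cases. For each pair the log2 difference of A minus B was taken on every array. This removes any array-wide scaling factor, but not an effect of quantile normalization that depends on brightness. The difference of A minus B between groups was tested with limma over all 61 A and B pairs on the array, 35 of them large subunit pairs. The changes of A and B differed (adjusted p under 0.05 over the 61) in 21 of the 35 pairs in the hsp31 deletion, 26 in the hsp32 deletion and 24 in the hsp33 deletion. That is 60%, 74.3% and 68.6% of the large subunit pairs. Over all 61 pairs, which include these 35 and are mostly ribosomal, the share was 54.1%, 73.8% and 62.3%. The shares are near each other, so nothing particular to the large subunit is read from them. The counts over the 35 pairs include RPP2 and RPL4, each with a saturated copy. Without them 19, 24 and 22 of 33 pairs differed, with A rising more in 8, 11 and 11 and B in 11, 13 and 11. Over the 33 pairs the median absolute difference was 0.29, 0.37 and 0.30 log2 units in the deletions of hsp31, hsp32 and hsp33. Within 1 slide, with 1 or 2 arrays per group, 10, 14 and 13 pairs differed on slide 1 and 15, 19 and 19 on slide 2.

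**Figure D3:**
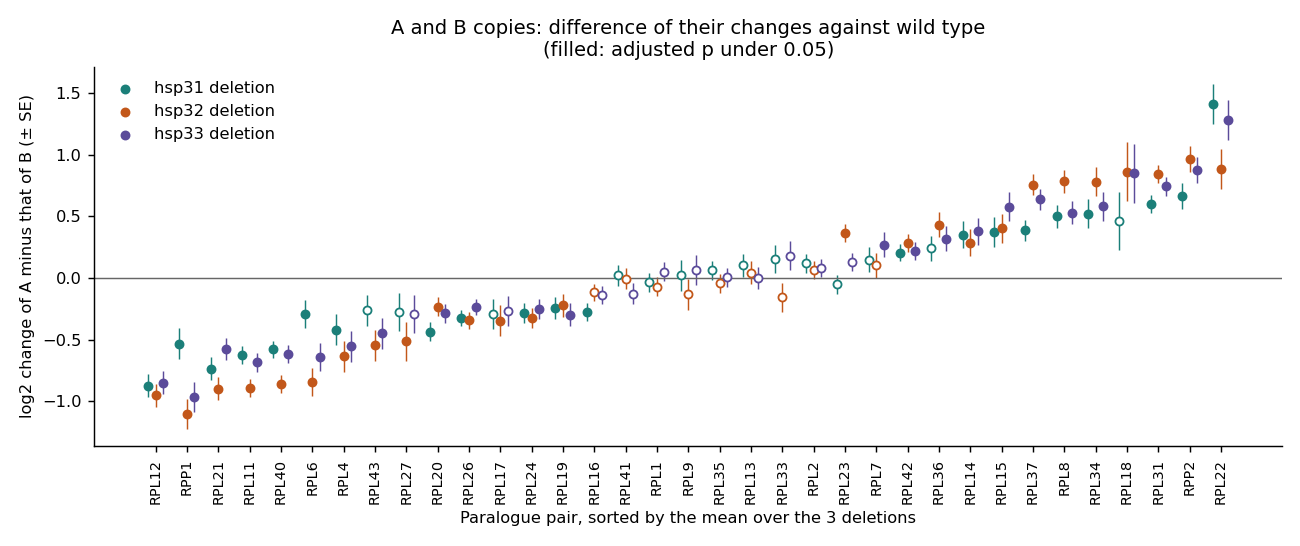
For each of the 35 pairs, the log2 change of the A copy minus that of the B copy against wild type (y axis, ± SE) is drawn for the 3 deletions, with filled points where the adjusted p is under 0.05. RPL12 and RPP1 stand at the lower end, where B rose more, and RPL22 at the upper end, where A rose more.

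RPL22 had the widest gap in the hsp31 deletion. RPL22A had 14.18, 14.23 and 14.10 in the hsp31 deletion, 14.53, 14.50 and 14.71 in the hsp32 deletion, 14.01, 14.02 and 14.76 in the hsp33 deletion, and 12.47, 12.41 and 12.01 in wild type. RPL22B had 9.35, 9.58 and 9.80 in the hsp31 deletion, 10.34, 10.51 and 10.67 in the hsp32 deletion, 9.80, 9.66 and 9.94 in the hsp33 deletion, and 9.12, 9.17 and 9.06 in wild type. Both copies were higher in every deletion array, RPL22A by far more, and hsp33 deletion replicate 3 stood above the other 2 arrays of its group for RPL22A. The change of A exceeded that of B by 1.41 ± 0.16 in the hsp31 deletion (adjusted p = 1.5e-05), 0.89 ± 0.16 in the hsp32 deletion (adjusted p = 0.0003) and 1.28 ± 0.16 in the hsp33 deletion (adjusted p = 1.4e-05).

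In the RPL12 and RPP1 pairs of the stalk the B copy rose more. RPL12B rose more than RPL12A, whose change was 1.13, 1.64 and 1.39, and A minus B was -0.87 ± 0.09, -0.95 ± 0.09 and -0.85 ± 0.09. RPP1A, encoding an acidic tip protein, had 12.33, 12.18 and 12.23 in the hsp31 deletion, 12.43, 12.45 and 12.52 in the hsp32 deletion, 12.32, 12.20 and 12.53 in the hsp33 deletion, and 11.79, 11.77 and 11.66 in wild type. RPP1B had 12.15, 12.17 and 12.50 in the hsp31 deletion, 13.00, 13.01 and 13.17 in the hsp32 deletion, 12.69, 12.83 and 12.91 in the hsp33 deletion, and 11.10, 11.22 and 11.37 in wild type. Both copies lay above wild type on every deletion array, and A minus B was -0.53 ± 0.12, -1.10 ± 0.12 and -0.97 ± 0.12. No difference is given for the RPP2 pair, since the saturated probe of RPP2B cannot show a rise, and its call in the hsp33 deletion was lost with saturated spots left out (adjusted p = 0.0666) and with arrays scaled to their median or 75th percentile (adjusted p = 0.0681). RPL4A limits the RPL4 pair in the same way on part of the arrays.

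**Figure D4:**
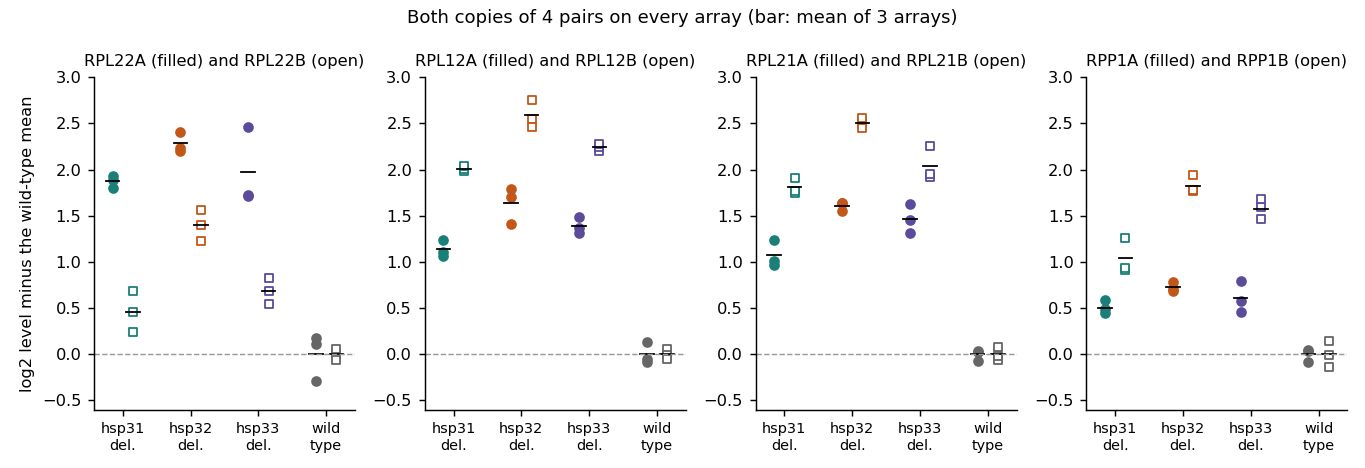
The A copy (filled circles) and the B copy (open squares) of RPL22, RPL12, RPL21 and RPP1 are drawn on each array as the log2 level minus that copy's wild-type mean, with bars at the mean of 3 arrays. In RPL22 the A copy lies higher in the deletions, and in the other pairs shown the B copy does.

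In RPL21 the B copy also rose more, with A minus B at -0.74 ± 0.09 in the hsp31 deletion, -0.90 ± 0.09 in the hsp32 deletion and -0.58 ± 0.09 in the hsp33 deletion. The ubiquitin fusion RPL40B rose more than RPL40A (A minus B -0.58 ± 0.07, -0.86 ± 0.07 and -0.62 ± 0.07), and RPL11B more than RPL11A (-0.62 ± 0.07, -0.89 ± 0.07 and -0.68 ± 0.07). On the other side, RPL31A rose more than RPL31B by 0.60 ± 0.07, 0.84 ± 0.07 and 0.74 ± 0.07, RPL37A more than RPL37B by 0.39 ± 0.09, 0.76 ± 0.09 and 0.64 ± 0.09, and RPL8A more than RPL8B by 0.50 ± 0.09, 0.78 ± 0.09 and 0.53 ± 0.09. RPL18 had one of the 4 widest gaps in the hsp33 deletion, 0.85 ± 0.24, with the dim RPL18B as its lower copy. That call was lost with arrays scaled to their median or 75th percentile (0.64, adjusted p = 0.0503). The pairs RPL1, RPL2, RPL9, RPL13, RPL33, RPL35 and RPL41 were not called in any of the 3 comparisons. For RPL2, A minus B was 0.12 ± 0.08, 0.07 ± 0.08 and 0.08 ± 0.08, and for RPL41 it was 0.02 ± 0.08, -0.01 ± 0.08 and -0.13 ± 0.08. The copies of several pairs are almost the same in sequence, and how much signal a probe takes from the other copy was not tested, since the probe sequences were not used here.

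The deletions were then compared with each other. The large subunit genes were highest in the hsp32 deletion: 68 of 82 members were higher in the hsp32 than in the hsp31 deletion, against 19.8% of all tested genes called higher, and none was lower (17.8% of all tested genes). The median member differed by 0.55 and the median gene by 0.01. The largest differences were in RPL6B (1.12 ± 0.13), RPL33B (1.03 ± 0.14) and RPL14B (0.98 ± 0.13). RPL6B had 11.72, 12.03 and 12.05 in the hsp32 deletion and 10.57, 10.79 and 11.08 in the hsp31 deletion, with no overlap. At the low end were RPL34B (0.09 ± 0.09), RPP1 (0.05 ± 0.20) and the saturated RPP2B, none of which passed the test. The median difference was 0.53 within slide 1 and 0.47 within slide 2, with 22 and 20 members called higher there. The A and B copies differed in this comparison in 9 of the 35 pairs (25.7%, near the 23% of all 61 pairs). Among them were RPL22 (-0.53 ± 0.16), RPL6 (-0.55 ± 0.11) and RPP1 (-0.57 ± 0.12). That count was 5 without hsp31 deletion replicate 1, 4 without hsp31 deletion replicate 2 and 4 without hsp32 deletion replicate 3.

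The hsp33 deletion lay between the other two, and its differences from them were small. Against the hsp31 deletion, 16 members were higher (2.88% of all tested genes were called higher), none was lower (1.96%) and the median difference was 0.25. The largest were RPL6B (0.59 ± 0.13), RPL11B (0.57 ± 0.12) and RPL14A (0.55 ± 0.14). At the low end RPP1 had -0.27 ± 0.20 and RPL41A -0.09 ± 0.14, neither past the test. The median difference was 0.48 within slide 1 and 0.11 within slide 2, and no member was called within either. The count was 0 without hsp33 deletion replicate 2, 0 without hsp33 deletion replicate 3, 1 without hsp31 deletion replicate 1 and 1 without hsp31 deletion replicate 2, while the median difference stayed between 0.18 and 0.30 under these 4 settings. The difference of RPL11B was 0.50 to 0.55 there, against 0.57 with all arrays, and no longer passed the test (adjusted p between 0.0729 and 0.0823). The count of members was 9, 9 and 10 without wild type replicate 1, 2 or 3 and 25 without hsp32 deletion replicate 3, arrays that enter only through the shared estimate of the spread.

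Against the hsp32 deletion, 24 members were lower in the hsp33 deletion (9.16% of all tested genes were called lower) and none was higher (9.55%), with a median difference of -0.26. RPL22B showed the widest one: it had 9.80, 9.66 and 9.94 in the hsp33 deletion and 10.34, 10.51 and 10.67 in the hsp32 deletion, a difference of -0.71 ± 0.12 (limma adjusted p = 0.0016). RPL33B followed with -0.62 ± 0.14 and RPL6B with -0.53 ± 0.13, while RPL15A (0.05 ± 0.08), RPP2B and RPL9A (-0.05 ± 0.11) stood at the other end. The median difference was -0.076 within slide 1, where each group had 1 array and no member was called, and -0.35 within slide 2, where each had 2 arrays and 21 were called. The count was 6 without hsp33 deletion replicate 1, 10 without replicate 2, 38 without replicate 3 of that group and 9 without hsp32 deletion replicate 3. No pair of copies was called in either comparison of the hsp33 deletion with another deletion, where 0% and 3.28% of all 61 pairs were called by limma with Benjamini-Hochberg adjustment. At an unadjusted limma p under 0.05, 4 of the 35 pairs differed against the hsp31 deletion and 7 against the hsp32 deletion. Over all 61 pairs, which include these, 7 and 14 did, so nothing particular to the large subunit is read from these counts. Against the hsp31 deletion, 3 pairs were called without hsp31 deletion replicate 3. Against the hsp32 deletion, 1 pair was called without hsp31 deletion replicate 2, hsp31 deletion replicate 3 or hsp33 deletion replicate 3.

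Of the 81 ribosomal protein genes, 76 had their group means in the order hsp32 deletion, hsp33 deletion, hsp31 deletion, wild type from high to low. In 4 (RPL15B, RPL18B, RPL41A and the saturated RPP2B) the mean of the hsp31 deletion stood above that of the hsp33 deletion, and in 1 (RPL15A) the hsp33 deletion came first, none of them by a difference past the test. The hsp33 deletion and its neighbours in this order differed past the test in 24 members on the side of the hsp32 deletion and 16 on the side of the hsp31 deletion. None of these calls was kept under every alternative given below. The place of the hsp33 deletion also varied by slide. Its difference from the hsp31 deletion within slide 2 was positive in 67 of 82 members. Its difference from the hsp32 deletion within slide 1 was positive in 24 of 82.

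The genes around the ribosome were set beside the members, and their counts are to be read against the shares of all tested genes given above: 25.8%, 33.3% and 29% called higher and 30.4%, 36.7% and 32.4% called lower. In the small subunit of the same ribosome 55, 56 and 56 of its 56 genes rose in the deletions of hsp31, hsp32 and hsp33, with medians of 1.15, 1.80 and 1.54. Of 30 genes for the large subunit of the mitochondrial ribosome, 1, 4 and 3 rose and 8, 11 and 12 fell, with medians of -0.065, -0.15 and -0.060. The genes that fell were 26.7%, 36.7% and 40% of this list, close to the share of all tested genes in the hsp31 and hsp32 deletions and somewhat above it in the hsp33 deletion, and those that rose were 3.33%, 13.3% and 10%. With arrays scaled to their 75th percentile (not with their median) the sign of these medians turned, to 0.089, 0.15 and 0.12. There 4, 9 and 9 genes rose and 1, 2 and 1 fell. The median of all tested genes was 0.12, 0.17 and 0.15 with that scaling, so the list stayed slightly below the median gene. In the small subunit at least 51 of 56 genes were called higher and none lower with either of these scalings or with the authors' series values. The shares of all tested genes given above belong to quantile normalization only.

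Among 20 genes for dedicated chaperones, assembly factors and export factors of the large subunit, 13, 19 and 15 rose and none fell, with medians of 0.45, 1.01 and 0.59. SYO1, which carries the Rpl5 and Rpl11 proteins into the nucleus, rose by 0.98 ± 0.19, 2.57 ± 0.19 and 1.47 ± 0.19, and the export factor ARX1 by 0.77 ± 0.15, 2.36 ± 0.15 and 1.43 ± 0.15. RRB1, the chaperone of Rpl3, rose by 0.85 ± 0.13, 1.80 ± 0.13 and 1.23 ± 0.13. SQT1, the chaperone of Rpl10, had 0.22 ± 0.10 in the hsp31 deletion, short of the test, and rose by 1.11 ± 0.10 and 0.45 ± 0.10 in the hsp32 and hsp33 deletions. AFG2, an ATPase that frees the assembly factor Rlp24, was not called in any of the 3, and with the 75th percentile it was called higher in the hsp32 deletion (0.62). RNA polymerase I, which makes the ribosomal RNA, had 6 of 7 subunit genes higher in each deletion, and RPA14 was the exception (-0.03 ± 0.10, -0.16 ± 0.10 and 0.02 ± 0.10).

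**Figure D5:**
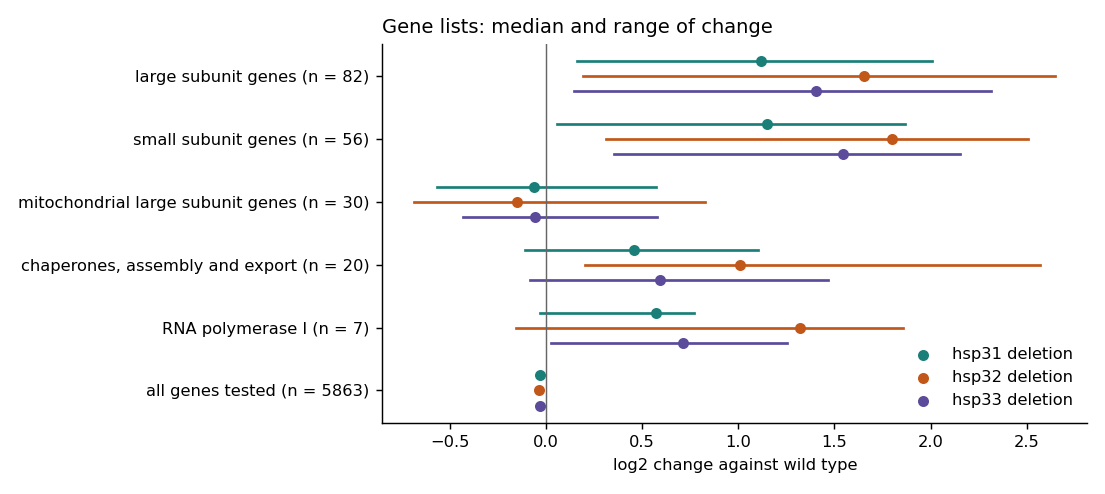
Points are the median log2 change against wild type of each gene list in the 3 deletions, and lines run from the lowest to the highest gene of the list (no line is drawn for all genes tested). The lower end of the large subunit lines is the saturated RPP2B. The cytosolic large and small subunits have medians from 1.12 to 1.80, while the mitochondrial large subunit lies between -0.15 and -0.060. With arrays scaled to their 75th percentile the mitochondrial medians are above 0, as are those of all tested genes.

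Of 12 regulators of ribosomal protein genes, 2 rose and 4 fell in the hsp31 deletion, and 3 rose and 6 fell in each of the other deletions. That is 16.7% and 25% higher and 33.3% and 50% lower, and with 12 genes nothing is read from these shares beside those of all tested genes. IFH1, the coactivator, rose by 0.62 ± 0.10, 1.02 ± 0.10 and 0.71 ± 0.10. Its partner FHL1 was not called (-0.11 ± 0.15, 0.08 ± 0.15 and 0.02 ± 0.15), though it was higher in the hsp32 and hsp33 deletions with the 75th percentile (0.46 and 0.36). CRF1, a corepressor that competes with Ifh1 for Fhl1, fell by 1.21, 1.43 and 1.32. The kinase gene SCH9, which acts below TORC1, fell by 1.06, 1.55 and 1.32, TOR1 by 0.58, 0.96 and 0.72, and the repressor gene STB3 by 0.64, 1.17 and 0.90. IFH1, CRF1, SCH9, TOR1 and STB3 kept these calls with arrays scaled to their median or 75th percentile and with the authors' series values. HMO1, a chromatin protein found at many of these genes, rose by 0.25 ± 0.09, 0.22 ± 0.09 and 0.23 ± 0.09, but had 0.03, -0.09 and -0.01 with arrays scaled to their median. RAP1 fell by 0.31 in the hsp32 deletion and 0.24 in the hsp33 deletion, and had -0.03 and -0.01 there with the 75th percentile. SFP1 and ABF1 were not called, but with arrays scaled to their median SFP1 was called lower and ABF1 higher in all 3 deletions. The repressor gene TOD6 had -0.15 ± 0.10 in the hsp31 deletion and rose by 0.75 ± 0.10 and 0.28 ± 0.10 in the hsp32 and hsp33 deletions, while its relative DOT6 fell by 0.31 and 0.28 there. With arrays scaled to their median TOD6 was no longer called in the hsp33 deletion (0.21), and DOT6 was called lower in the hsp31 deletion too (-0.69).

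The authors' deposited tables list the spots with a p-value of at most 0.05. The sources used here name neither its test nor an adjustment. Of the 164 member spots, the authors' deposited table holds 137 for the hsp31 deletion, 146 for the hsp32 deletion and 146 for the hsp33 deletion, which cover 74, 75 and 74 of the 82 members. These are 83.5%, 89% and 89% of the member spots, where 52.7%, 60% and 56.9% of all 12504 gene spots are in the authors' deposited table. A ratio below 1 is given in the authors' deposited table for 1 of these spots, of RPL3 in the hsp31 deletion, and for 66.7%, 63.6% and 64.5% of all listed gene spots. The size of most ratios above 1 could not be read, since their decimal point is lost, so only their side of 1 was used.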

How the data were processed

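Per the file headers, the deposited scanner columns hold foreground and local background intensity per spot, not normalized, and the percent of saturated pixels. The series values the authors deposited are the same intensity, equal to the median foreground in 100% of spots. The authors' deposited comparison tables give a ratio and a p-value per spot. Scanner, software and normalization are not given in the sources used here. The planned processed signal is not among these columns, so the planned fallback was used: normexp (offset 50, mean foreground, median background), quantile normalization over 12504 gene spots, log2, and the mean of a probe's 2 spots. Above background means over the median of 77 negative spots by 2 SD (5863 genes tested, 5003 of them above it on all 12 arrays). limma 3.58.1 in R 4.3.3 fitted 4 group means (8 residual degrees of freedom) for 6 comparisons, each adjusted by Benjamini-Hochberg over 5863 genes, and likewise A minus B over 61 pairs. Saturated means at least 50% of pixels. Scripts were tested on simulated data. Arrays with the same replicate number had mean correlations of 0.04, -0.03 and -0.01, but 8 of 12 arrays correlated best with their own number. Whether the numbers pair the samples is not settled. They were not used as pairs in the main fit, and a replicate block is given as an alternative.

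Members and lists were chosen with earlier results of these data known. Named genes are the 4 largest and 4 smallest changes against wild type, the 3 highest and 3 lowest between deletions, members nearest the median, not called or saturated, the 4 widest pairs, small functional groups, regulators and chaperones. The other pairs named were picked after their values were seen. Promoter motifs were planned but not searched, as no sequence was used here. The number of arrays limits the precision.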

Additional observations from a re-analysis of the deposited data

How the results depend on the processing

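The count of changed members, the median change and the count of differing pairs were recomputed for all 6 comparisons under 24 alternatives, 12 of which leave out 1 array each. Shares over all tested genes or all pairs are not given for the alternatives, so their counts stand without one. No median changed sign, and the count of members changed against wild type stayed between 75 and 82. In the hsp31 deletion against wild type, 73 of 81 calls were kept under every alternative, 77 of 81 in the hsp32 deletion and 76 of 81 in the hsp33 deletion. Between deletions 9 of 68, 0 of 16 and 0 of 24 were kept. With arrays scaled to their median, the median change was 0.85, 1.33 and 1.08 in the deletions of hsp31, hsp32 and hsp33, the counts of the hsp33 deletion against the hsp31 and hsp32 deletions were 4 and 8, and 1 pair differed between the hsp33 and hsp32 deletions, as with the 75th percentile. RPL3 in the hsp31 deletion reversed, to -0.046 with the 75th percentile and -0.25 with the median. The cause was not tested.

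With the authors' series values, 15 pairs differed between the hsp32 and hsp31 deletions and 2 between the hsp33 and hsp32 deletions, and 2 did in the second with saturated spots left out. Slide as a block left 10 members between the hsp33 and hsp31 deletions. Fitting only the 2 groups compared left 1 there, 14 between the hsp33 and hsp32 deletions, and 5 pairs between the hsp32 and hsp31 deletions, with 1 pair between the hsp33 and hsp32 deletions. Within slide 1, where fewer arrays remain, 10, 14 and 13 pairs differed in the deletions of hsp31, hsp32 and hsp33, the hsp33 deletion's median was 1.60, the hsp32 deletion had 22 members and 0 pairs past the test against the hsp31 deletion, and the hsp33 deletion had 0 members past it against either (medians 0.48 and -0.076). Within slide 2 the hsp32 deletion had 20 members and 0 pairs, and the hsp33 deletion 0 members, against the hsp31 deletion (median 0.11 for the hsp33 deletion).

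Leaving out 1 array, the count of pairs between the hsp32 and hsp31 deletions ran from 4 to 11, the count of members between the hsp33 and hsp31 deletions from 0 to 25 and of pairs from 0 to 3, and between the hsp33 and hsp32 deletions from 6 to 38 and from 0 to 1. The replicate block takes the replicate numbers as pairs, which the labels do not state (8 of 12 arrays correlated best with their own number, as a hint from the data). It gave 81 members in each comparison with wild type and 69 between the hsp32 and hsp31 deletions. Between the hsp33 and hsp31 deletions it gave 26, and between the hsp33 and hsp32 deletions 31 members and 1 pair. Of 45 single genes and pairs, 55 of 1075 recomputed calls were lost, 21 of them within 1 slide and 22 others between the hsp33 and hsp31 deletions. Brightness limits the 4 saturated members and may limit RPL28 and RPL4B, and dimness limits RPL18B.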
